A study of Mus musculus with 6 samples.

Results

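A set of 9 genes of the Hedgehog pathway was followed in cultured neonatal mouse ovary: the ligand genes Dhh and Ihh, the co-receptor gene Gas1, the receptor gene Ptch1, the decoy receptor gene Hhip, the signal transducer gene Smo and the transcription factor genes Gli1, Gli2 and Gli3. They were taken by gene symbol, with no measured value in the rule, but with earlier results of these data known. They are 9 of the 27098 genes in the deposited count table. All 9 were matched and all 9 passed the filter on low counts, as did 17475 genes in all. Ovaries of mice 3 days after birth were kept in DMEM/F12 medium with antibiotics at 37 degrees for 2 h. The 3 control libraries came from medium alone and the 3 PRP libraries from medium with 2% platelet-rich plasma (PRP), which the series text describes as human and activated with thrombin. Strain and genotype are not described here, and a control with thrombin or with another plasma is not among these libraries. Whether the numbered replicates are separate animals, litters or cultures is not stated, so each p-value refers to the scatter among these 6 libraries, part of which may be technical.

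Hedgehog ligands are secreted proteins that bind the receptor PTCH1 on neighbouring cells. Without ligand PTCH1 holds the membrane protein SMO inactive; with ligand SMO is released and acts through the primary cilium on the GLI transcription factors, of which GLI1 and GLI2 mostly activate and GLI3 is largely processed into a repressor. GLI1, PTCH1 and HHIP are themselves classic transcriptional targets, so their transcripts are widely used as a readout of the pathway. In the ovary granulosa cells make DHH and IHH, whereas the receptors and GLI factors are found in the surrounding mesenchyme, from which theca cells arise.

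Libraries held 35568000 to 36568367 counts. Marker genes of granulosa cells, oocytes and stromal mesenchyme were detected in every library, with summed levels of 1231 to 1379, 1446 to 2259 and 2518 to 3307 CPM (counts scaled to a common library size with TMM factors). Erythroid markers stood apart in control 3, with a summed 1151 CPM against 94.9 to 210.6 CPM in the other 5 libraries. The Sertoli marker Dmrt1 stayed below 1 CPM, and Sox9, the other gene of that list, lay at 26.5 to 35.2 CPM.

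The stretches just upstream of 3 of the genes are shown because Ptch1 and Hhip are GLI targets of very different level and Dhh is the more abundant ligand transcript. Each is the 250 bases before a RefSeq transcription start in GRCm38.p6, read 5′ to 3′ on the gene's strand, with every CpG dinucleotide in capitals. The Ptch1 window (chr13:63565736-63565985, minus strand) holds 41 CpGs, the Hhip window (chr8:80058009-80058258, minus strand) 28 and the Dhh window (chr15:98898541-98898790, minus strand) 9. These starts are not the outer ends of the genes: all 250 bases of the Ptch1 window, the last 52 of the Hhip window and the last 22 of the Dhh window lie inside the gene's full RefSeq span. No exon of the GENCODE M21 basic set overlaps the 3 windows.
Ptch1: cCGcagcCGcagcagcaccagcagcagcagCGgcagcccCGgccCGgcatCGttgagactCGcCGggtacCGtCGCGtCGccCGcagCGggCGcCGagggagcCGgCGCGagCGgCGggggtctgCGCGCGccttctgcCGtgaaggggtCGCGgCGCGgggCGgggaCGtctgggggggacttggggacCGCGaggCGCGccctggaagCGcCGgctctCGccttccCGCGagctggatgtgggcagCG
Hhip: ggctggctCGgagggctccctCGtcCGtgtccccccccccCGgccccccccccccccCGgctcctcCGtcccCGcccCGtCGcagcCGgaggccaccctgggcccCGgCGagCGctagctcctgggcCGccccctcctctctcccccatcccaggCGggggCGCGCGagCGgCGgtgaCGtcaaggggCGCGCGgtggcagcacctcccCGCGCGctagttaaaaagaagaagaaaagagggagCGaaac
Dhh: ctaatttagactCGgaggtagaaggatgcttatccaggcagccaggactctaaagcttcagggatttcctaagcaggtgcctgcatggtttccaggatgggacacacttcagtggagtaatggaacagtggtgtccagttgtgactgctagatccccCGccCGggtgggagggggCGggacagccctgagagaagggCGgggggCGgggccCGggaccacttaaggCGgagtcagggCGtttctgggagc
Over all 32851 such windows the median was 6 CpGs, and the 8 members with an entry held between 9 and 41. Gli1 was not matched. The 9-letter core of the GLI binding site, GACCACCCA, searched on both strands, was in 0 of the 8 windows and in 0.225% of all windows. These letters were sought only in the windows named.

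The genes differed widely in level. Per kilobase of exon (the union of GENCODE M21 basic exons), the mean over the 6 libraries was highest for Smo at 39.1 ± 3.1 CPM per kb (SD, n = 6) and next for Gas1, whose product presents ligand to PTCH1, at 27.0 ± 2.8 CPM per kb. Ptch1 at 18.3 ± 3.0 CPM per kb and Gli1 at 17.1 ± 3.1 CPM per kb followed, and their ranges overlapped, with Ptch1 the higher in 4 of 6 libraries. Gli3 at 6.60 ± 0.62 CPM per kb and Gli2 at 6.48 ± 1.35 CPM per kb did not differ beyond their spread. The ligand genes were far lower, Dhh at 1.00 ± 0.30 CPM per kb and Ihh at 0.67 ± 0.24 CPM per kb, with overlapping ranges although Dhh was above Ihh in 6 of 6 libraries. Hhip was lowest at 0.117 ± 0.045 CPM per kb. The third mammalian ligand gene, Shh, had 0 or 1 count in each library and was not tested.

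**Figure D1:**
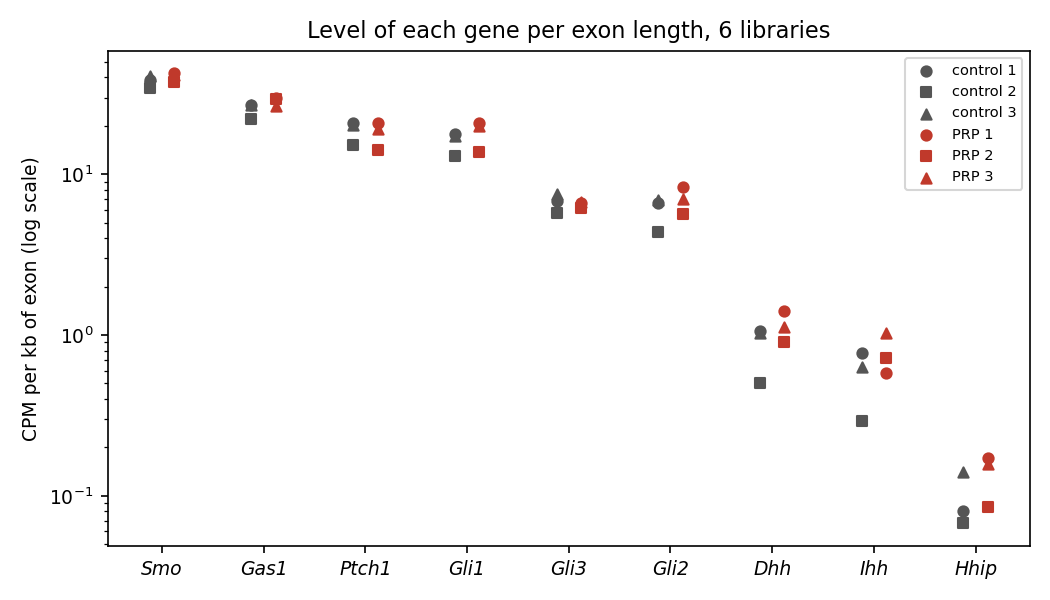
Level of each gene in CPM per kb of exon on a log axis, with 1 point per library (grey control, red PRP; circle, square and triangle for replicates 1, 2 and 3). The transducer Smo and the co-receptor Gas1 lie above 20 CPM per kb in every library, and the ligand genes Dhh and Ihh lie below 1.5 CPM per kb.

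Transcript levels after 2 h with PRP were compared with those in plain medium. No member of the pathway passed the test. In the edgeR quasi-likelihood fit over 17475 genes 0 of the 9 members had an adjusted p under 0.05 (0.9998 for each of the 9), beside 0% of all genes tested. At an unadjusted p under 0.05 there were 0 of the 9 members and 3.19% of all genes. DESeq2 and limma-voom called 0 members and 0% of all genes as well, with 3.15% and 3.23% of all genes at that unadjusted level. No member had its 3 PRP libraries all above or all below its 3 control libraries, where 4.34% of all genes lay above, 4.87% below and 9.21% apart in either direction. Log2 fold changes (PRP minus control) were above 0 in 7 of 9 members, with a median of 0.18, against 50.4% and a median of 0.00 over all genes tested. Taking the replicate number as a block, which let 21 genes (0.12%) pass over the table, 14 higher and 7 lower, called 0 of the 9 members. At an unadjusted p under 0.05 the blocked fit held 4 of the 9, namely Dhh, Gas1, Gli1 and Gli2, and 11.2% of all genes.

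The ligand gene Dhh (Entrez 13363, chromosome 15, 98881615 to 98898562 in GRCm38, as for the coordinates that follow), made by pregranulosa and granulosa cells, was read at 4.66, 2.20 and 4.54 CPM in control 1 to 3 and at 6.21, 4.002 and 4.90 CPM in PRP 1 to 3. Control 2 was lowest and PRP 1 highest, and the groups overlapped. Its log2 fold change was 0.41 (95% interval -0.30 to 1.11), from 79 to 226 counts per library. Ihh (Entrez 16147, chromosome 1, 74945315 to 74951672), the other ligand gene, was read at 1.90, 0.72 and 1.56 CPM in control and 1.43, 1.77 and 2.55 CPM in PRP. It too was lowest in control 2 but highest in PRP 3, with the groups overlapping. With only 26 to 92 counts per library its log2 fold change of 0.46 had an interval of -0.48 to 1.40, so that both lower and markedly higher levels of Ihh lay within it.

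Gas1 (Entrez 14451, chromosome 13, 60174405 to 60177535) was read at 79.7, 65.1 and 79.6 CPM in control and 88.5, 87.5 and 78.6 CPM in PRP. Control 2 was the low library, and PRP 3 lay within the control range. The log2 fold change of 0.18 ± 0.09 (SE, interval -0.02 to 0.39) had an unadjusted p of 0.0775 and an adjusted p of 0.9998 (unpaired edgeR fit). That unadjusted p was the smallest of the 9 members in the unpaired fit, whereas with the block Gli2 and Gli1 had smaller ones than Gas1.

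Ptch1 (Entrez 19206, chromosome 13, 63508328 to 63573460), the receptor and a target of its own pathway, was read at 162, 118 and 157 CPM in control and 161, 109.65 and 149 CPM in PRP. Both replicates numbered 2 were low and the other 4 libraries lay close together, with the groups overlapping almost completely. The log2 fold change was -0.06 (interval -0.47 to 0.35), and it turned to 0.023, 0.0012 or 0.090 without control 1, control 3 or PRP 2. Hhip (Entrez 15245, chromosome 8, 79965850 to 80058060), which binds and sequesters ligand, had 26, 22 and 45 counts in control and 57, 28 and 52 counts in PRP. The 2 libraries numbered 2 were again the lowest of their groups, and PRP 2 lay below control 3. Its log2 fold change was 0.53 (interval -0.48 to 1.54), which these counts leave wide.

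Smo (Entrez 319757, chromosome 6, 29735497 to 29761366) was read at 145, 129 and 153 CPM in control and 160.5, 141 and 157 CPM in PRP. It was the steadiest member, with a 1.24-fold range over all 6 libraries, and the groups overlapped. The log2 fold change of 0.10 had an interval of -0.08 to 0.28.

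Gli1 (Entrez 14632, chromosome 10, 127329882 to 127341579), the most direct transcriptional readout, was read at 72.6, 52.7 and 70.5 CPM in control and 84.2, 56.0 and 80.4 CPM in PRP. Both replicates numbered 2 were low, and the groups overlapped because PRP 2 lay below control 1 and control 3. The log2 fold change was 0.17 ± 0.18 (SE; interval -0.26 to 0.60). Gli2 (Entrez 14633, chromosome 1, 118834061 to 119054405), the main activator at the start of signalling, was read at 43.8, 29.1 and 46.0 CPM in control and 55.4, 37.4 and 46.3 CPM in PRP, which gave a log2 difference of 0.23 (interval -0.25 to 0.70). Gli3 (Entrez 14634, chromosome 13, 15463723 to 15730026), the main source of repressor, was read at 56.6, 47.6 and 62.9 CPM in control and 55.1, 51.5 and 56.0 CPM in PRP. Its PRP libraries all lay within the control range, and its log2 fold change was -0.04 (interval -0.27 to 0.19). Part of the span of Gli1 overlaps Arhgap9, that of Gli2 the non-coding Gm51642 and that of Gli3 the non-coding Gm6556, and reads there cannot be told apart without the counting rules.

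**Figure D2:**
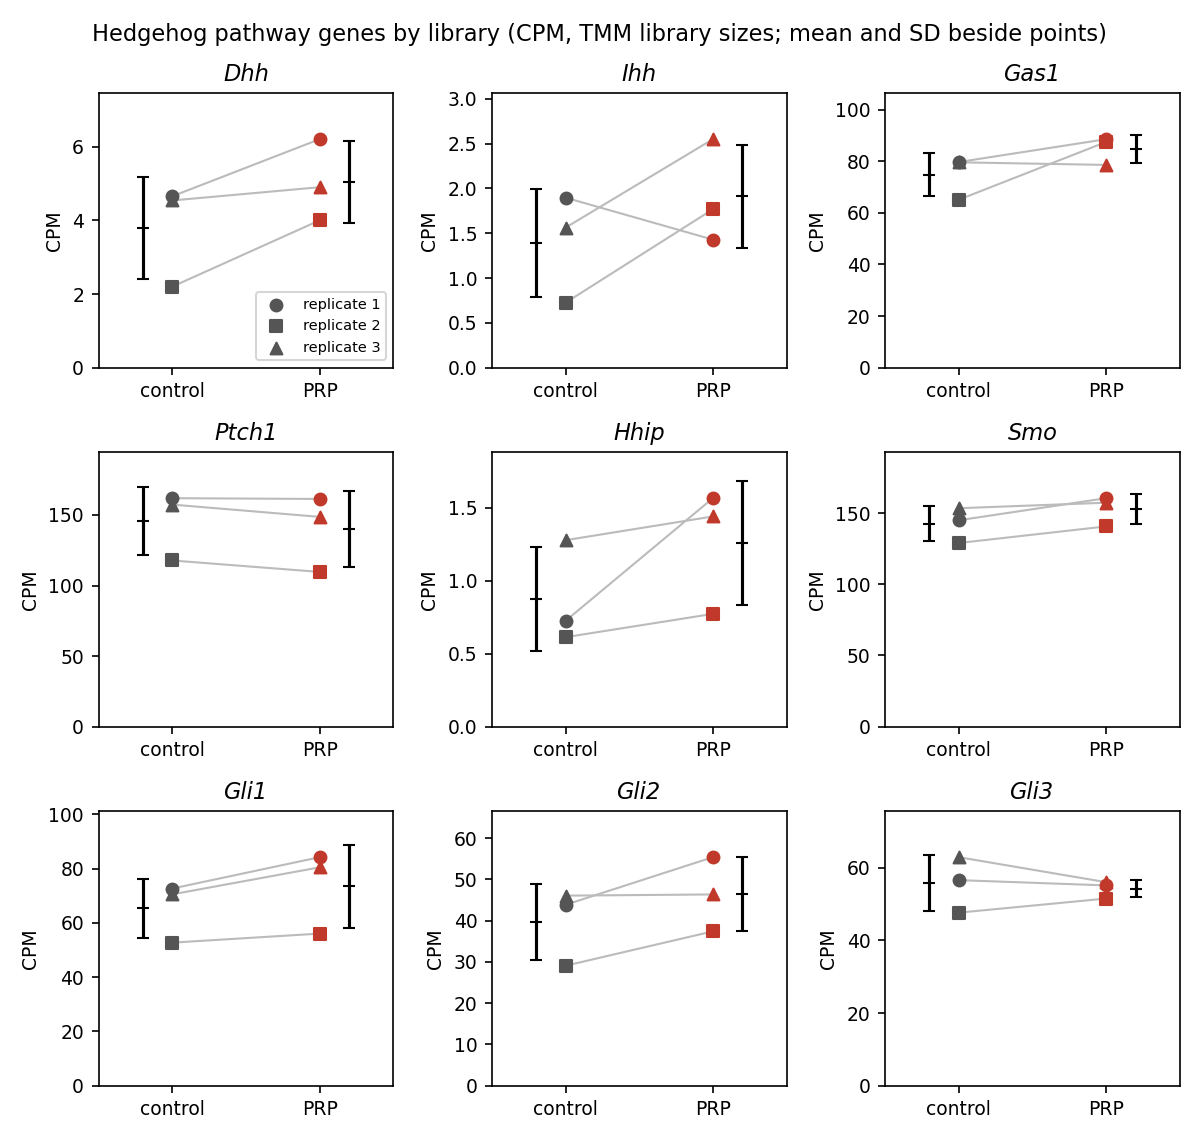
CPM of the 9 genes in control (grey) and PRP (red), with same-number libraries joined by lines and the mean and SD of each group (n = 3) beside the points. The squares (replicate 2) sit lowest in both groups for Dhh, Ptch1, Hhip, Smo, Gli1, Gli2 and Gli3, and no panel has separate groups.

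Within same-number pairs, 5 members were higher in PRP in 3 of 3 pairs, namely Dhh, Hhip, Smo, Gli1 and Gli2, where 16.8% of all genes were. Ptch1 was lower in 3 of 3 pairs, where 16.3% of all genes were, by only 0.005, 0.10 and 0.08 on the log2 scale. For Gli1 the pair differences were 0.21, 0.09 and 0.19 and for Gli2 0.34, 0.36 and 0.01. Members share their libraries, so these counts are not independent of each other, and the blocked fit gave Gli1 and Gli2 adjusted p-values of 0.265 and 0.25 (edgeR).

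**Figure D3:**
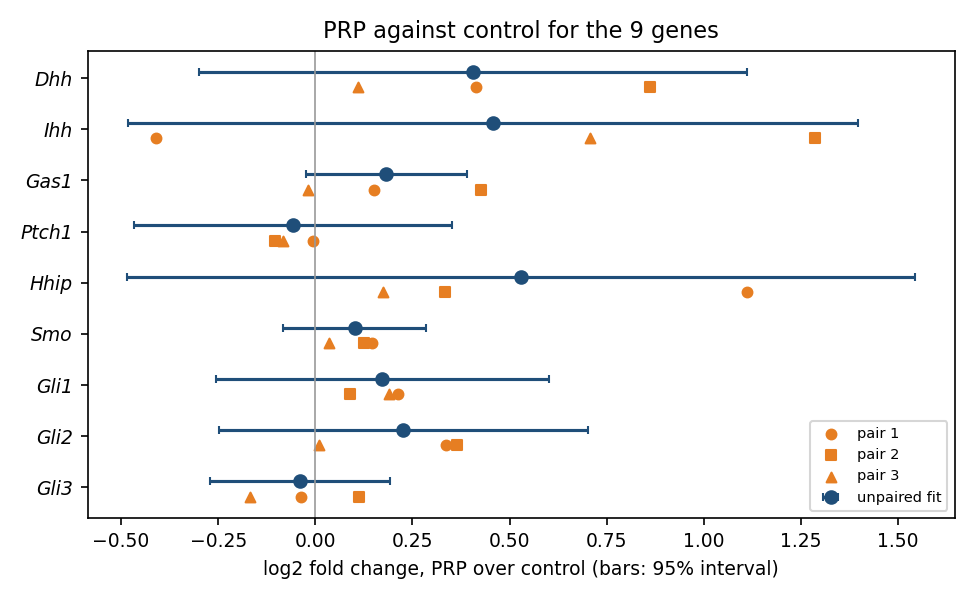
Log2 fold change of each gene, PRP over control, from the unpaired edgeR fit with its 95% interval (blue) and from each same-number pair (orange circle, square and triangle for pairs 1, 2 and 3). Every unpaired interval spans 0, and the widest belong to the low-count genes Hhip and Ihh. Intervals of the blocked fit are not drawn.

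The order of the libraries in these genes went with the replicate number. Replicate 2 was the lowest of its group in both control and PRP for 7 of 9 members, the exceptions being Ihh and Gas1, where 20.1% of all genes tested had that order. Control 2 alone was the lowest of all 6 libraries for 8 of 9 members, where 18.6% of all genes had it there, and PRP 2 was the lowest for Ptch1. The median member lay 0.38 below its own mean on the log2 scale in control 2 and 0.09 below it in PRP 2, and between 0.06 and 0.19 above it in the other 4 libraries. PRP 1 held the highest value for 6 of 9 members. This order was looked for after the values were seen.

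The same order was seen in the summed markers of 6 of the 10 cell type lists: stromal mesenchyme, oocyte, mural, endothelial, macrophage and adipocyte. All 5 of the stromal mesenchyme markers (Pdgfra, Tcf21, Dcn, Lum and Col1a1) were lowest in replicate 2 of both groups, and their summed level was 2518 CPM in control 2 and 2791 CPM in PRP 2 against 2821 to 3307 CPM in the other 4 libraries. Summed granulosa markers were 1293 CPM in control 2 and 1353 CPM in PRP 2, within 1231 to 1379 CPM over all libraries. Of the 8 markers, 4 were lowest in replicate 2 of both groups. Kitl and Wnt4, the granulosa markers of highest level, were instead highest in replicate 2 of both groups. Summed oocyte markers were lowest in control 2 and PRP 2, at 1446 and 1562 CPM, with 3 of 7 markers (Zp2, Zp3 and Gdf9) in that order. Dazl and Sohlh1 were instead highest in replicate 2 of both groups. Endothelial markers summed to 251 and 235 CPM in control 2 and PRP 2 against 252 to 292 CPM in the other libraries. Mural markers summed to 129 and 161 CPM against 134 to 203 CPM. Macrophage markers summed to 24.5 and 25.6 CPM against 27.1 to 30.7 CPM. Singly, 2 of 4 endothelial, 3 of 4 mural and 2 of 3 macrophage markers were lowest in replicate 2 of both groups. Adipocyte markers summed to 0.334 and 0.497 CPM in control 2 and PRP 2 and to at most 1.39 CPM elsewhere. Surface epithelium, erythroid and Sertoli sums, like the granulosa sum, did not have this order. The part of these cell types in the members' levels was not tested, and in a bulk library fewer cells of a type and less RNA per cell cannot be told apart. Without control 2 the log2 fold changes were nearer to 0 for Dhh, Ihh, Gas1, Hhip, Smo, Gli1 and Gli2, at 0.13, 0.15, 0.09, 0.33, 0.04, 0.04 and 0.05, and were -0.19 for Ptch1 and -0.14 for Gli3. The median over the 9 members, 0.18 with all libraries, was 0.05 without control 2, 0.08 without PRP 1 and 0.34 without PRP 2.

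**Figure D4:**
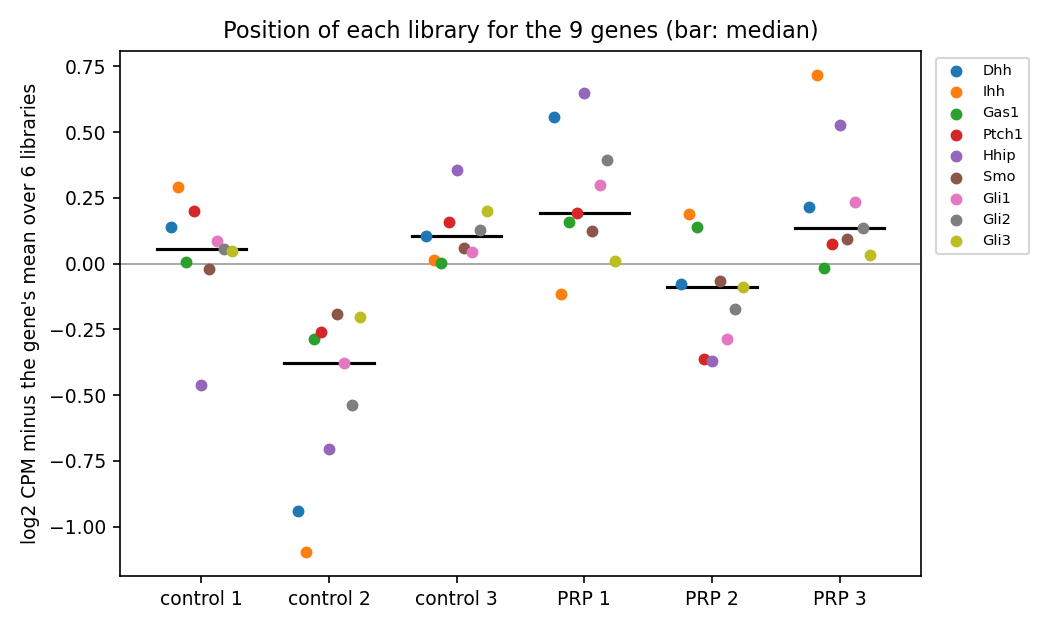
Log2 CPM of each of the 9 genes minus its mean over the 6 libraries, by library, with a bar at the median. Control 2 has all 9 genes below 0 and a median of -0.38, and PRP 2 has 7 genes below 0.

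The proportion of Gli1 to Ptch1, both targets of the pathway, was also read within each library, where the ratio of counts does not depend on scaling between libraries. Gli1 had 0.449, 0.447 and 0.448 counts per Ptch1 count in control 1 to 3 and 0.522, 0.511 and 0.541 in PRP 1 to 3. The groups did not overlap, and the ratio averaged 0.448 ± 0.0006 in control and 0.525 ± 0.015 in PRP (SD, n = 3), 1.17-fold higher. The 3 controls lay closer together than counting error alone gives, since the standard error from counting was 0.0106 to 0.0139 per library, so their spread understates the error. A two-sided exact permutation test of the log2 ratio gave p = 0.1, the smallest that 3 against 3 allows, and 0.655 after Benjamini-Hochberg adjustment over the 36 pairs of members. Of those 36 ratios 4 (11.1%) had separate groups, the others being Dhh to Ptch1, Ptch1 to Gli2 and Smo to Gli3. Over the table, the ratio of a gene to Ptch1 separated upward in PRP for 3.07% of the genes, for 2.64% by at least as much as Gli1, and downward for 0.795%. The ratio was singled out after its values were seen.

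**Figure D5:**
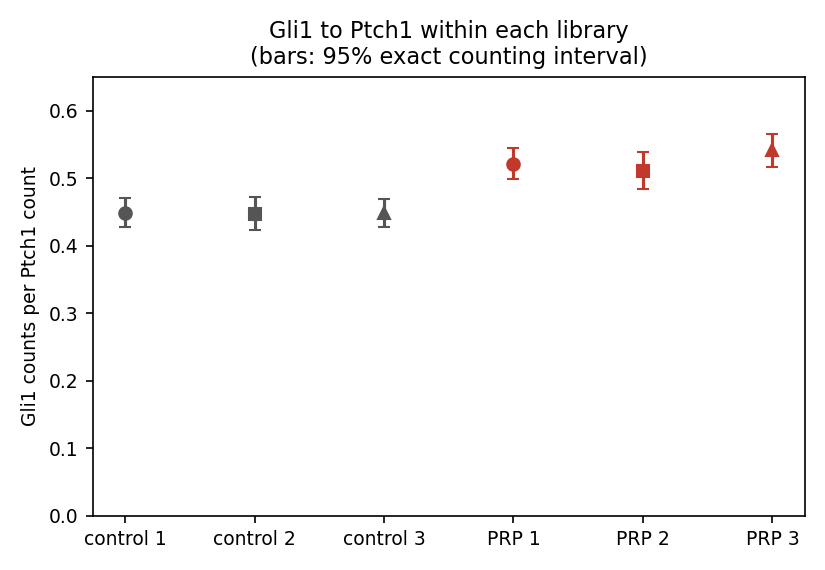
Gli1 counts per Ptch1 count in each library, with 95% exact counting intervals that cover counting error only. The 3 control libraries lie at 0.447 to 0.449 and the 3 PRP libraries at 0.511 to 0.541.

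Across the 6 libraries and 12038 genes with a mean of at least 5 CPM, the genes whose log2 CPM followed Gli1 most closely were Naalad2, Eva1b, Dcn, Rhog and Bmp7, with Pearson r of 0.9981 to 0.9956. Those closest to Ptch1 were Mxd1, Pard3b, Bicc1, Tshz2 and Mr1, at 0.9943 to 0.9854. Gli1 and Ptch1 correlated with each other at 0.8868 and Gli1 with Gli2 and Smo at 0.9371 and 0.9321, ranks 586, 267 and 295 on the Gli1 list, whereas Gas1 stood at 0.5111. With 6 points that share their libraries and replicate numbers, these are descriptions only.

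Beyond the members, 7 lists held other pathway genes, genes often used as its targets, and theca, steroidogenic and oocyte genes. They came to 52 further genes, not all of them of the pathway, of which 48 could be tested. None passed in either fit, beside 0% and 0.12% of all genes, 31 of 48 had a log2 fold change above 0, and the median was 0.05. Groups were apart in 2 genes with PRP higher and in 3 with PRP lower, beside the 4.34% and 4.87% of all genes. Of the 5 tested genes for making and releasing ligand 0 passed, with 4 log2 fold changes above 0. Scube2, which helps release ligand from the cell surface, had a log2 fold change of 0.14 ± 0.20, and Hhat, which attaches the ligand's palmitate, one of 0.06 ± 0.12 (SE). Among 5 receptors and co-receptors 0 passed. The co-receptor Boc had a log2 fold change of 0.16 ± 0.13 (SE).

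Between SMO and the GLI factors 17 genes were tested and 0 passed, with 11 above 0. Gsk3b and Csnk1a1, kinases that mark GLI proteins for processing, differed by -0.10 and -0.09 on the log2 scale (each ± 0.06 SE). The groups of Gsk3b were apart with PRP lower, as in 4.87% of all genes, and those of Csnk1a1 overlapped. Of 5 cilium transport genes 0 passed. Dync2h1, the motor that carries cargo back from the ciliary tip, was read at 50.8, 51.0 and 50.5 CPM in control and 46.7, 45.5 and 46.6 CPM in PRP. Its groups did not overlap, as in 4.87% of all genes with PRP lower, but its log2 fold change of -0.13 ± 0.07 (SE) did not pass (edgeR adjusted p = 0.9998). Ift88, a part of the transport train into the cilium, had one of 0.15 ± 0.09 (SE). Its groups were apart with PRP higher, as in 4.34% of all genes.

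Genes often used as Hedgehog targets in mesenchyme had 0 of 6 tested members past the threshold. Bcl2, a survival factor, had a log2 fold change of -0.14 ± 0.08 and the cyclin gene Ccnd2 one of -0.08 ± 0.06 (SE). Of 8 tested theca and steroidogenic genes 0 passed. Star, which delivers cholesterol for steroid synthesis, was read at 30.1, 23.99 and 23.1 CPM in control and 17.3, 20.6 and 17.9 CPM in PRP. Its groups did not overlap, as in 4.87% of all genes with PRP lower. Its log2 difference was -0.47 (interval -0.77 to -0.17), and the adjusted p was 0.9998 without and 0.144 with the block (edgeR). Tcf21, a transcription factor of gonadal mesenchyme, had a log2 fold change of 0.36 ± 0.15 (SE), with a blocked adjusted p of 0.0641 (edgeR). Cyp17a1, the theca enzyme for androgen synthesis, had 3 to 11 counts per library and was not tested. The oocyte genes Gdf9 and Bmp15, whose products act on granulosa cells, differed by 0.10 ± 0.14 and 0.20 ± 0.28 on the log2 scale (SE).

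The deposited annotation assigns 55 genes to the KEGG Hedgehog pathway, all 9 members among them. Of the other 46 genes 43 were tested and 0 passed, 23 lay above 0, and the median log2 fold change was 0.006. The genes of this set with the smallest p-values lay lower in PRP, Btrc, a ubiquitin ligase subunit that acts on GLI proteins, by a log2 fold change of -0.14 ± 0.07 and the kinase gene Csnk1g1 by -0.15 ± 0.08 (SE). These were named after their values were seen.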

How the data were processed

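Messenger RNA libraries of 3 control and 3 PRP ovary cultures were analysed from 1 table of raw counts per gene symbol deposited by the authors. The build, GRCm38 (mm10), is named in the submitters' processing notes; for the aligner, counter and strand setting the entry is not given in the sources used here. Columns were matched to samples by title; 1 column name differs from the title of PRP 3 by swapped letters and was taken as that library, since the remaining names all match.

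The robust quasi-likelihood F test of edgeR 4.0.16 (R 4.3.3) compared PRP with control on these counts after filterByExpr and TMM scaling. It was two-sided and without a block, and p-values were adjusted over all 17475 genes by Benjamini-Hochberg, with a threshold of 0.05. Standard errors came from the fold change and its F statistic. The procedure was tested on simulated counts drawn independently for each library, without the likeness of same-number libraries. Changes were set only in genes of higher level than Dhh, Ihh and Hhip. DESeq2 1.42.0, limma-voom (limma 3.58.1), other scaling factors and filters, a replicate block and leaving out libraries were alternatives. Deviations from group means correlated at 0.50, 0.61 and 0.54 between same-number libraries and at -0.06 or below otherwise, over 12039 genes. The deviations of a group cancel out for each gene, so the negative values partly follow from the positive ones. The numbers were taken as pairs on the same-number values, from these data and no label.

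Gene coordinates and upstream sequences are from RefSeq (GRCm38.p6) and exon lengths from GENCODE M21. Members, lists and tests were chosen with earlier results of these data known. The text names all 9 members and, of each further list, the genes past the threshold or else the 2 with the smallest unpaired p, and for Gli1 and Ptch1 the 5 genes most like each; 1 gene that this rule names is not reported here.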

Additional observations from a re-analysis of the deposited data

How the results depend on the processing

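No member and no gene of the further lists passed under any of 21 other settings. With the block in DESeq2, however, only 2 of 9 members (Ptch1 and Smo) and 16 of 48 further genes had an adjusted p. That fit says nothing of the rest. The count over all genes was 0 in 16 of the 21 settings. It rose to 21 with the replicate block and to 79 with the block in DESeq2. With the block and leaving out pair 1, 2 or 3 it was 3, 1 and 19. It was 0 with the block in limma-voom and without robust estimation. In edgeR and limma-voom the block changed no call among the members or the genes of the further lists. The log2 fold changes of Dhh, Ihh, Gas1, Hhip, Smo, Gli1 and Gli2 stayed above 0 in 21 of 21 settings, but moved by over 1.5 times when single libraries were left out, from 0.13 to 0.58 for Dhh, 0.15 to 0.74 for Ihh, 0.09 to 0.24 for Gas1, 0.33 to 0.91 for Hhip, 0.04 to 0.16 for Smo, 0.04 to 0.34 for Gli1 and 0.05 to 0.36 for Gli2, unpaired. The lowest value was without control 2 in each of these 7. Those of Ptch1 and Gli3, which lie near 0, changed sign when libraries were left out: Ptch1 ran from -0.189 to 0.0903 unpaired, and Gli3 from -0.138 to 0.0577 unpaired and from -0.102 to 0.0374 with the block; the cause was not tested. The Gli1 to Ptch1 difference of 0.23 on the log2 scale ran from 0.20 to 0.25 when each library was left out, a check added after seeing the data. Depth limits Ihh and Hhip most, at 22 to 92 counts per library.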
